A study of Mus musculus with 6 samples.

Results

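The genes described here encode 10 proteins that build, read or remove ubiquitin chains around TRAF6, namely Ube2n, Ube2v1, Peli1, Peli2, Sqstm1, Tnfaip3, Tnip1, Cyld, Usp15 and Otud7b. They were taken as a fixed list of gene symbols, and each had exactly 1 probe set annotated to its symbol alone, so all 10 were measured among the 22180 genes that had such a probe set. Their RNA was compared between 3 arrays labelled Tifab-/- (KO) and 3 arrays labelled Tifab+/+ (WT), 1 array per mouse, on the Affymetrix MoGene 2.0 ST platform. The cells were lineage-negative, Sca1-positive, cKit-positive marrow cells (LSK cells), the sorted fraction that contains hematopoietic stem cells and multipotent progenitors. Both groups came from transplanted mice, and per the labels' protocols the recipients were Boy/J mice irradiated with 7 Gy and, 3 hours later, 4.75 Gy. The protocol text can also be read as sorted LSK cells having been injected into the recipients, so whether the RNA came from LSK cells taken before or after that step rests on the design text, which names LSK cells of transplanted mice. A figure of 3 months appears in the labels, which can be read as the age of the mice or as the time since transplantation. Neither the way Tifab was deleted nor a donor marker in the sorting gate is described there, so LSK cells surviving in the host cannot be told apart from donor cells. All values below are log2 probe set values as deposited, and every difference is KO-labelled minus WT-labelled in log2 units.

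TRAF6 is a ubiquitin ligase that passes signals from Toll-like and interleukin-1 receptors to NF-kB and stress kinases. With the conjugating enzyme pair UBC13 and UEV1A it builds ubiquitin chains that serve as platforms for kinase complexes and do not mark proteins for destruction. Pellino ligases and the scaffold p62 help to build or hold these assemblies. A20, CYLD and other deubiquitinases take them apart, and ABIN1 is a ubiquitin-binding partner of A20. Tifab encodes a relative of TIFA, an adaptor that binds TRAF6.

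Among the 10 genes, only Sqstm1 had lower values in all KO-labelled arrays than in any WT-labelled array, as 8.37% of all genes did. The level of Sqstm1 in the KO-labelled arrays was 0.677 of that in the WT-labelled arrays. None of the 10 passed an adjusted p of 0.05, and neither did any of the 22180 genes (0% called). The negative editors Tnfaip3, Tnip1 and Cyld had lower means and overlapping groups, and the Pellino genes Peli1 and Peli2 had means on opposite sides of 0.

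The Tifab probe set did not separate the labels, so every direction given here rests on them. Tifab read 5.21, 5.12 and 5.26 in the KO-labelled arrays, against 4.99, 5.37 and 5.53 in the WT-labelled arrays (difference -0.099, adjusted p = 0.885 in limma). The position of its probes against the deletion was not known here, so it gives no check of the labels. Of the markers of LSK cells, Kit lay between 9.41 and 9.59 in the KO-labelled and between 9.50 and 9.69 in the WT-labelled arrays, and Cd34 between 10.47 and 10.66 and between 10.32 and 10.55, where the median of all probe sets on an array was 4.05 to 4.10. Ly6a, which encodes Sca1, had no probe set of its own symbol and was not analysed here. Pearson's r between arrays, taken across genes, which are not independent replicates, was 0.985 to 0.986 among KO-labelled arrays, 0.976 to 0.979 among WT-labelled arrays and 0.975 to 0.983 across the labels.

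Sqstm1 encodes p62, a scaffold that binds TRAF6 and ubiquitin chains and carries ubiquitinated cargo to autophagy. Its values were 8.62, 8.48 and 8.45 in the KO-labelled arrays, against 9.29, 9.10 and 8.84 in the WT-labelled arrays. The KO-labelled values were all lower and lay closer together, with the highest of them 0.23 below the lowest WT-labelled one. The means were 8.52 ± 0.088 and 9.08 ± 0.23 (SD, n = 3 each), a difference of -0.56 ± 0.14 (SE, 95% interval -0.87 to -0.26). The fold of 0.677 had a 95% interval of 0.547 to 0.837. Limma gave an unadjusted p of 0.00237 and an adjusted p of 0.334. Over all genes, 152 had a p as low, or 0.69% of them. Sqstm1 was the single member with an unadjusted p under 0.05 in the lower direction (1 of 10, where 5.51% of all genes were called so), and 0 of 10 were called in the higher direction, where 4.74% of all genes were. It was also the single member whose groups did not overlap with KO lower, a pattern seen in 8.37% of all genes.

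With each array left out in turn, the Sqstm1 difference lay between -0.68 (without WT replicate 3) and -0.46 (without WT replicate 1), and its unadjusted p stayed under 0.05 in each of these fits. The highest p over these and the remaining alternatives was 0.0158. Its adjusted p ran from 0.195 to 0.645 over the same fits and did not reach the threshold in any of them. Sqstm1 is also a known target of the antioxidant factor NRF2.

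The start region of Sqstm1 is shown because the gene carried the clearest difference of the set, together with those of Tnfaip3 and Tnip1, whose products A20 and ABIN1 work as a pair. The windows run from 250 bases before to 50 bases after the RefSeq start in GRCm38.p6, on the minus strand: chr11:50210771-50211070 for Sqstm1, chr10:19015361-19015660 for Tnfaip3 and chr11:54962891-54963190 for Tnip1. Capitals mark matches to the TATA box letters TATAAA and to the kappaB form GGNNTTNCC, searched on both strands.
Sqstm1: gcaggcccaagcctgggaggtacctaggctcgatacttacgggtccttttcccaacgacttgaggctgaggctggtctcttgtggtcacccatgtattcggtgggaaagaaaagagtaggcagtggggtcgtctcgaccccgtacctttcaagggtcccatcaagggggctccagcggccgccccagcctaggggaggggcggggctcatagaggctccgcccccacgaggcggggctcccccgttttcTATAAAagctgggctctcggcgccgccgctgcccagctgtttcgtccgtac
Tnfaip3: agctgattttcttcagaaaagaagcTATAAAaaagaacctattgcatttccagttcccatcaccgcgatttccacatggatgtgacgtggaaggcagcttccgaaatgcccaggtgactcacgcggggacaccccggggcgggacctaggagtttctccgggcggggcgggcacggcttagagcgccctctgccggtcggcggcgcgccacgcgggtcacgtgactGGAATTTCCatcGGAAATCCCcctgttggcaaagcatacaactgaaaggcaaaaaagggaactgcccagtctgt
Tnip1: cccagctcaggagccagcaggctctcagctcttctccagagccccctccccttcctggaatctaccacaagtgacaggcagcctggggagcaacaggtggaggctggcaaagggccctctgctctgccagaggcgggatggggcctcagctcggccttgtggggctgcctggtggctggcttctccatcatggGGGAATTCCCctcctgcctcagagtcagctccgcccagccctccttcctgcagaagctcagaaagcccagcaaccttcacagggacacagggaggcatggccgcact
The Sqstm1 window held a TATA box match that began 1 base before the annotated start, no match to the kappaB form, and no match to TGACNNNGC, the core of the antioxidant response element. The Tnfaip3 window held a pair of kappaB matches that began 24 and 12 bases before the start, and a TATA match farther upstream. In the Tnip1 window 2 overlapping kappaB matches began 57 and 56 bases before the start. These kappaB letters occurred in windows of 5 of the 10 genes, the others being Cyld, Ube2v1 and Peli2. Otud7b had no window to search, and a second Tnfaip3 window held 0 kappaB matches. Counted by window and not by gene, the letters occurred in 16.0% of all 32851 start windows of 300 bases. The GC box letters GGGCGG occurred in windows of 9 of the 10 genes, all those with a window, against 35.7% of all windows. The base composition of the windows was not compared. TATAAA occurred in 13.6% of all windows and TGACNNNGC in 12.4%. The motif letters were chosen after the sequences had been seen, and a match describes letters in a window, not a bound site. Matches outside the 300 bases were not searched for, so a missing match says nothing of elements farther from the start.

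**Figure D1:**
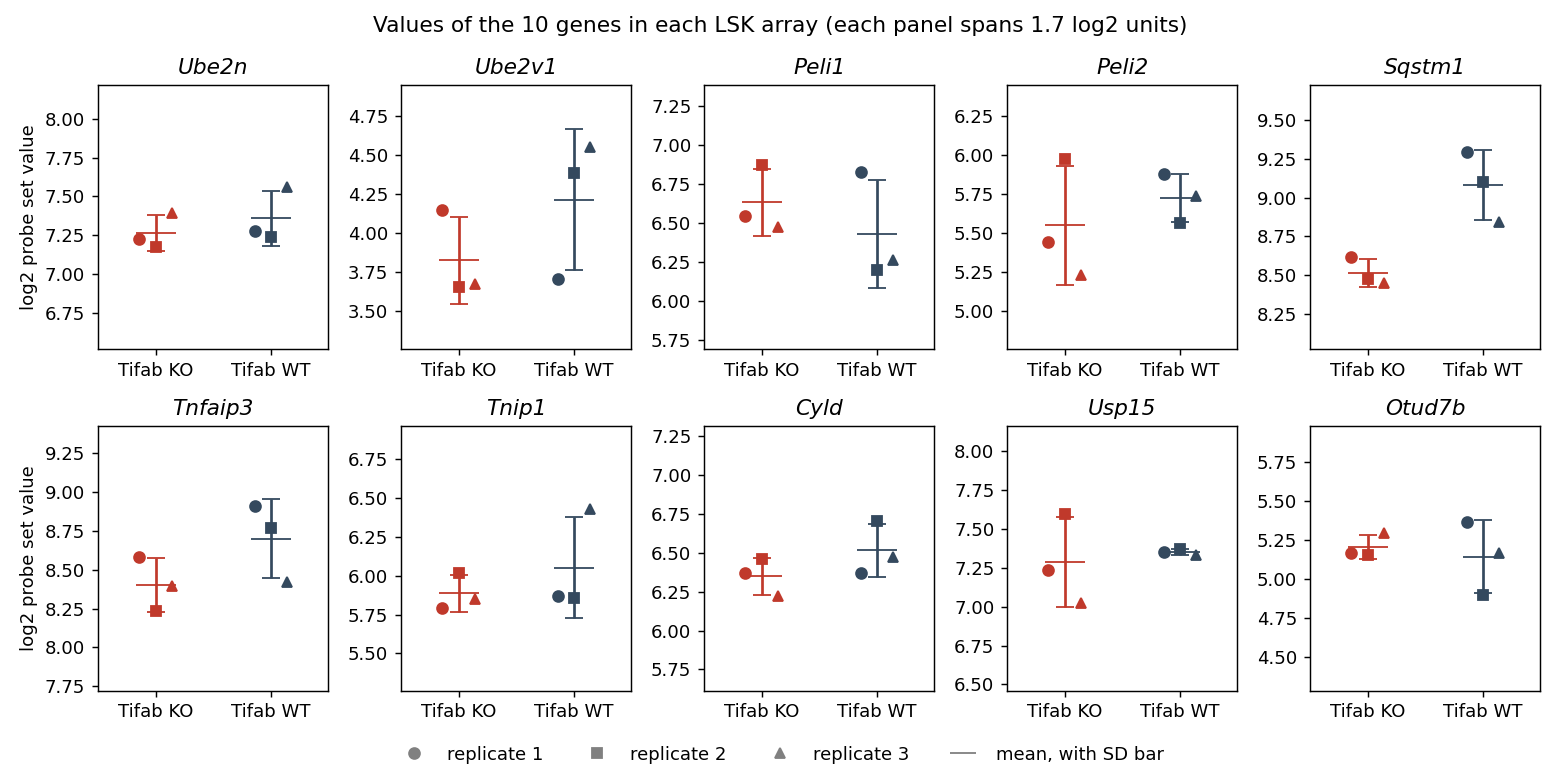
Log2 probe set values (vertical axis, each panel spanning 1.7 log2 units) of the 10 genes in the KO-labelled (red, left) and WT-labelled (dark, right) arrays. Symbols stand for replicates, and bars for the mean and SD. Only in the Sqstm1 panel are the groups apart, with 8.45 to 8.62 against 8.84 to 9.29; in the other 9 panels they overlap.

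Tnfaip3 encodes A20, an inhibitor that removes ubiquitin chains from TRAF6 and is itself induced by NF-kB. It measured 8.58, 8.24 and 8.40 in the KO-labelled arrays, against 8.91, 8.77 and 8.42 in the WT-labelled arrays. In 2 of 3 KO-labelled arrays the value lay below every WT-labelled one, and the overlap came from KO replicate 1 and WT replicate 3. The difference was -0.30 ± 0.16 (SE, 95% interval -0.65 to 0.056, adjusted p = 0.542 in limma). Without WT replicate 3 it was -0.44 with an unadjusted p of 0.0168, and without WT replicate 1 it was -0.19 with an unadjusted p of 0.275.

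Tnip1 encodes ABIN1, a ubiquitin-binding partner of A20. It measured 5.79, 6.01 and 5.85 in the KO-labelled arrays, against 5.87, 5.86 and 6.43 in the WT-labelled arrays. A single array, WT replicate 3, lay above the other 5, which spanned 5.79 to 6.01. The difference of -0.17 ± 0.19 (SE, 95% interval -0.60 to 0.26) became 0.022 without that array.

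Cyld encodes a deubiquitinase that trims chains on TRAF6 and on other NF-kB regulators. It measured 6.37, 6.46 and 6.22 in the KO-labelled arrays, against 6.37, 6.70 and 6.47 in the WT-labelled arrays. KO replicate 1 and WT replicate 1 held the same deposited value, and WT replicate 2 was the highest. The difference was -0.17 ± 0.16 (SE, 95% interval -0.52 to 0.19), and -0.071 without WT replicate 2.

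Usp15 and Otud7b encode further deubiquitinases; that of Otud7b, also called Cezanne, is known to restrain noncanonical NF-kB signalling. Usp15 measured 7.24, 7.60 and 7.02 in the KO-labelled arrays, against 7.35, 7.37 and 7.33 in the WT-labelled arrays. The KO-labelled values lay on both sides of the WT-labelled ones, with an SD of 0.29 against 0.019. The difference was -0.065 ± 0.17 (SE, 95% interval -0.44 to 0.31) and lay between -0.22 without KO replicate 2 and 0.067 without KO replicate 3. Otud7b measured 5.17, 5.16 and 5.30 in the KO-labelled arrays, against 5.37, 4.90 and 5.17 in the WT-labelled arrays. Its KO-labelled values lay inside the WT-labelled range, and the difference was 0.063 ± 0.17 (SE, 95% interval -0.32 to 0.45), or -0.061 without WT replicate 2.

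Both genes of the conjugating enzyme pair had lower means in the KO-labelled arrays and intervals that included 0. Ube2n encodes UBC13, the catalytic member of the pair that works with TRAF6. It measured 7.22, 7.17 and 7.39 in the KO-labelled arrays, against 7.28, 7.24 and 7.56 in the WT-labelled arrays. In both groups replicate 3 was the highest, and the groups overlapped. The difference was -0.095 ± 0.15 (SE, 95% interval -0.43 to 0.24), or 0.0061 without WT replicate 3.

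Ube2v1 encodes UEV1A, the inactive partner that positions ubiquitin for UBC13. It measured 4.15, 3.65 and 3.67 in the KO-labelled arrays, against 3.70, 4.39 and 4.55 in the WT-labelled arrays. KO replicate 1 and WT replicate 1 each lay nearer to the values of the opposite label. The difference was -0.39 ± 0.24 (SE, 95% interval -0.94 to 0.16, adjusted p = 0.607 in limma), which gave Ube2v1 the widest interval of the 10 genes. It was -0.65 with an unadjusted p of 0.0127 without WT replicate 1, and -0.22 with an unadjusted p of 0.405 without WT replicate 3.

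Peli1 and Peli2 encode Pellino ligases, which act with IRAK kinases upstream of TRAF6 and its targets. Peli1 measured 6.54, 6.88 and 6.48 in the KO-labelled arrays, against 6.83, 6.20 and 6.26 in the WT-labelled arrays. KO replicate 2 and WT replicate 1 were both high, and the groups overlapped through WT replicate 1. The difference was 0.20 ± 0.20 (SE, 95% interval -0.26 to 0.66), the highest of the 10, and it was 0.40 without WT replicate 1 and 0.079 without KO replicate 2.

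Peli2 measured 5.44, 5.97 and 5.23 in the KO-labelled arrays, against 5.88, 5.56 and 5.73 in the WT-labelled arrays. KO replicate 2 was the highest of all 6 arrays and the other KO-labelled arrays were the lowest. The difference was -0.18 ± 0.21 (SE, 95% interval -0.65 to 0.30), or -0.39 without KO replicate 2 and -0.017 without KO replicate 3.

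**Figure D2:**
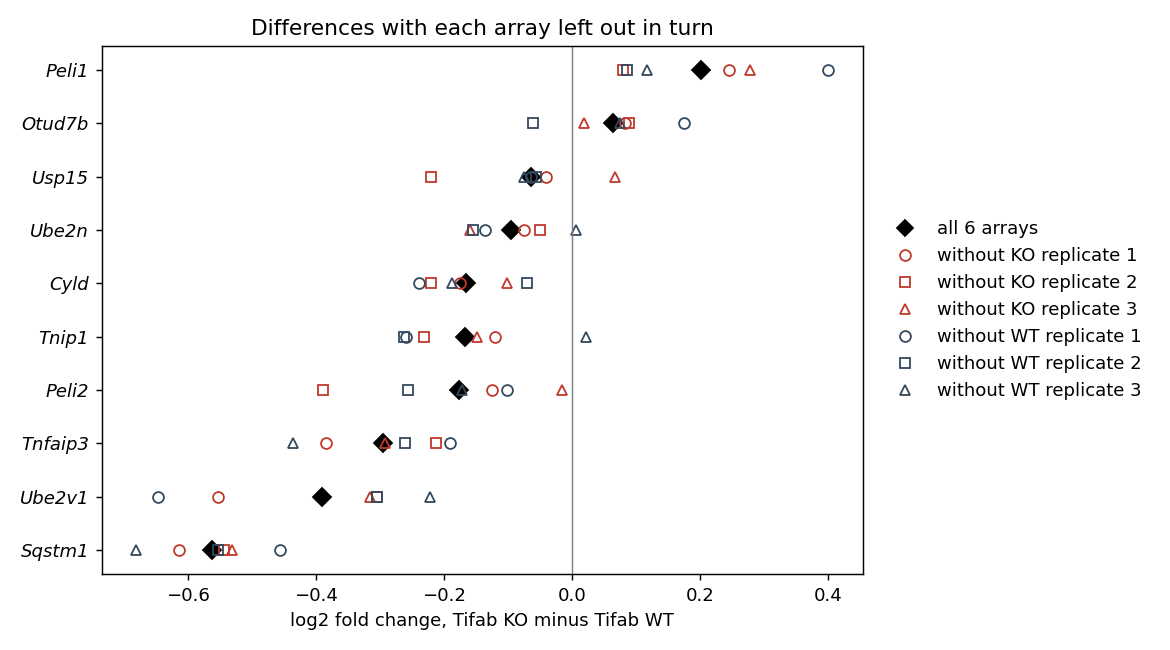
Log2 fold change, KO-labelled minus WT-labelled (horizontal axis), of each gene with all 6 arrays (black diamonds) and with each array left out in turn (open symbols, red for a KO-labelled and dark for a WT-labelled array). Sqstm1 keeps between -0.68 and -0.46, while Otud7b, Usp15, Ube2n and Tnip1 have values on both sides of 0.

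Genes whose products work in pairs, and the related Pellino genes Peli1 and Peli2, were also compared within each array. The log2 value of 1 probe set was taken minus that of the other. Peli1 minus Peli2 was 1.10, 0.90 and 1.25 in the KO-labelled arrays, against 0.95, 0.64 and 0.53 in the WT-labelled arrays. The values were mostly higher in the KO-labelled arrays and overlapped at KO replicate 2 and WT replicate 1, with a difference of 0.38 between the means. Ube2v1 minus Ube2n differed by -0.30 between the means of KO-labelled and WT-labelled arrays, and Tnfaip3 minus Tnip1 by -0.13. Exact two-sided permutation tests gave p = 0.2 for the Pellino pair, 0.3 for the conjugating pair and 0.7 for the A20 and ABIN1 pair, or 0.45, 0.45 and 0.7 after Benjamini-Hochberg adjustment over the 3 pairs, where 0.1 is the smallest p that 3 arrays against 3 allow. The pairs were chosen after the values had been seen.

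By counts, 8 of the 10 genes had a lower mean and 2 a higher mean in the KO-labelled arrays, where 50% of all genes had a lower mean. The median difference of the 10 was -0.17, against 0.0001 over all genes. Without Sqstm1, 7 of the remaining 9 were lower and the median was -0.17. Quantile normalization, cyclic loess and median centring left 8 of 10 on the lower side, and the count lay between 6 (without WT replicate 3) and 9 (without WT replicate 2) with single arrays left out.

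Differences on these arrays moved with signal level, with a median of -0.17 in the dimmest of 10 equal bins of genes ranked by mean signal. The 10 genes lay in the fifth bin or brighter ones, where the median of all genes in the same bin lay between 0.0051 and 0.064. The spread was larger in the WT-labelled arrays for 8 of the 10 genes, with a median SD of 0.15 in the KO-labelled and 0.23 in the WT-labelled arrays. Over all genes 60.7% had the larger SD in the WT-labelled arrays, and the median SDs were 0.17 and 0.21.

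No array was high or low throughout the set. Within the KO label, replicate 2 held the highest value of 5 genes, Tnip1, Cyld, Usp15, Peli1 and Peli2, and the lowest value of 4, Ube2n, Ube2v1, Tnfaip3 and Otud7b. KO replicate 3 held the lowest value of Cyld, Usp15, Sqstm1, Peli1 and Peli2, and KO replicate 1 that of Tnip1. Within the WT label, replicate 1 was highest for Sqstm1, Tnfaip3, Otud7b, Peli1 and Peli2, and replicate 3 for Ube2n, Ube2v1 and Tnip1.

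**Figure D3:**
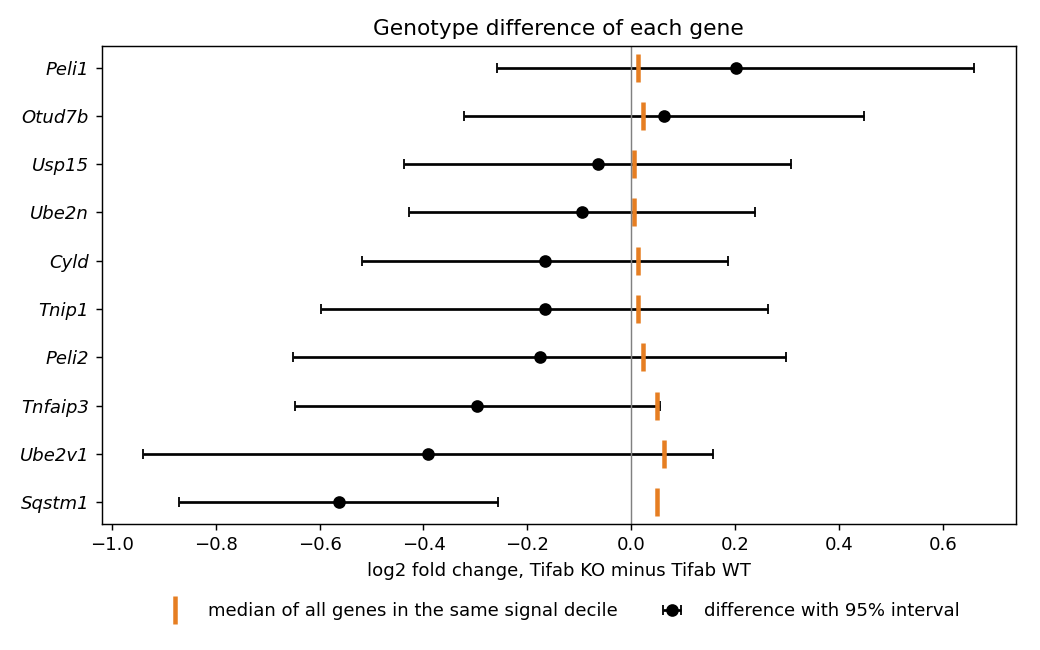
Log2 fold change, KO-labelled minus WT-labelled (horizontal axis), of each gene with its 95% interval (black) beside the median of all genes in the same signal bin of 10 (orange). The interval of Sqstm1 runs from -0.87 to -0.26, and the other 9 intervals include 0.

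Other ubiquitin genes of the pathway were set out in 3 lists of 77 genes, of which 68 had a probe set of their own. In the KO-labelled arrays 38 of the 68 had a lower and 30 a higher mean, with a median difference of -0.025. At an unadjusted p under 0.05, 4 were lower (5.88%, where 5.51% of all genes were), 0 were higher, and 0 of 68 passed the adjusted threshold. The 4 were the deubiquitinases Stambp and Bap1, the conjugating enzyme Ube2d2a and the ligase Birc3. Their groups did not overlap, nor did those of Rnf114 (-0.27) and, in the higher direction, Otud4 (0.17), which were named after their values were seen; 16.1% of all genes had groups that did not overlap in either direction.

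The deubiquitinases, 24 measured of 25, had 13 lower and 11 higher means and a median of -0.017. Stambp, which encodes the endosomal deubiquitinase AMSH, measured 5.06, 5.11 and 5.49 in the KO-labelled arrays, against 5.84, 5.68 and 5.85 in the WT-labelled arrays. Its difference was -0.57 ± 0.17 (SE, adjusted p = 0.356 in limma), as large as that of Sqstm1, and lay between -0.71 and -0.49 with single arrays left out. Bap1, which encodes a nuclear deubiquitinase of histone H2A, measured 6.98, 6.65 and 7.06 in the KO-labelled arrays, against 7.43, 7.36 and 7.44 in the WT-labelled arrays. The WT-labelled values of Bap1 were close together, and its difference was -0.51 ± 0.15 (SE, adjusted p = 0.356 in limma).

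The conjugating enzymes and ligases, 28 measured of 30, had 16 lower and 12 higher means and a median of -0.058. Birc3, which encodes the ligase cIAP2 and is itself induced by NF-kB, measured 6.76, 6.63 and 6.26 in the KO-labelled arrays, against 7.04, 6.94 and 6.86 in the WT-labelled arrays. The difference was -0.40 ± 0.17 (SE, adjusted p = 0.475 in limma), or -0.25 without KO replicate 3. The unadjusted p of 0.0418 for Birc3 was above 0.05, at 0.155 at most, in 5 of the 6 fits with 1 array left out (all but that without KO replicate 1), and also with array weights (0.0626) and without moderation of the spread (0.0668). Ube2d2a, a broadly used conjugating enzyme, measured 9.07, 9.23 and 8.82 in the KO-labelled arrays, against 9.50, 9.36 and 9.37 in the WT-labelled arrays, a difference of -0.37 ± 0.13 (SE, adjusted p = 0.388 in limma). It had 3 probe sets, and the dimmer ones gave -0.015 and -0.14, so its value belongs to 1 probe set. The mean of its probe sets gave -0.18 with an unadjusted p of 0.212, and without KO replicate 3 or WT replicate 1 the p was 0.0569 and 0.0508.

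Traf6 itself measured 6.24, 5.47 and 5.57 in the KO-labelled arrays, against 6.23, 5.91 and 5.76 in the WT-labelled arrays. Replicate 1 was the highest in both groups, and the groups overlapped. The difference was -0.21 ± 0.23 (SE, 95% interval -0.72 to 0.31), and lay between -0.45 without KO replicate 1 and -0.060 without KO replicate 2. Among the 16 measured binders and adaptors of 22 listed, 9 were lower and 7 higher in mean, none had an unadjusted p under 0.05, and the median was -0.018. Tifa, the adaptor related to Tifab, measured 4.90, 5.15 and 4.49 in the KO-labelled arrays, against 4.61, 4.86 and 4.52 in the WT-labelled arrays, and its difference of 0.19 ± 0.20 (SE) lay within the spread of the arrays, between 0.035 without KO replicate 2 and 0.37 without KO replicate 3.

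**Figure D4:**
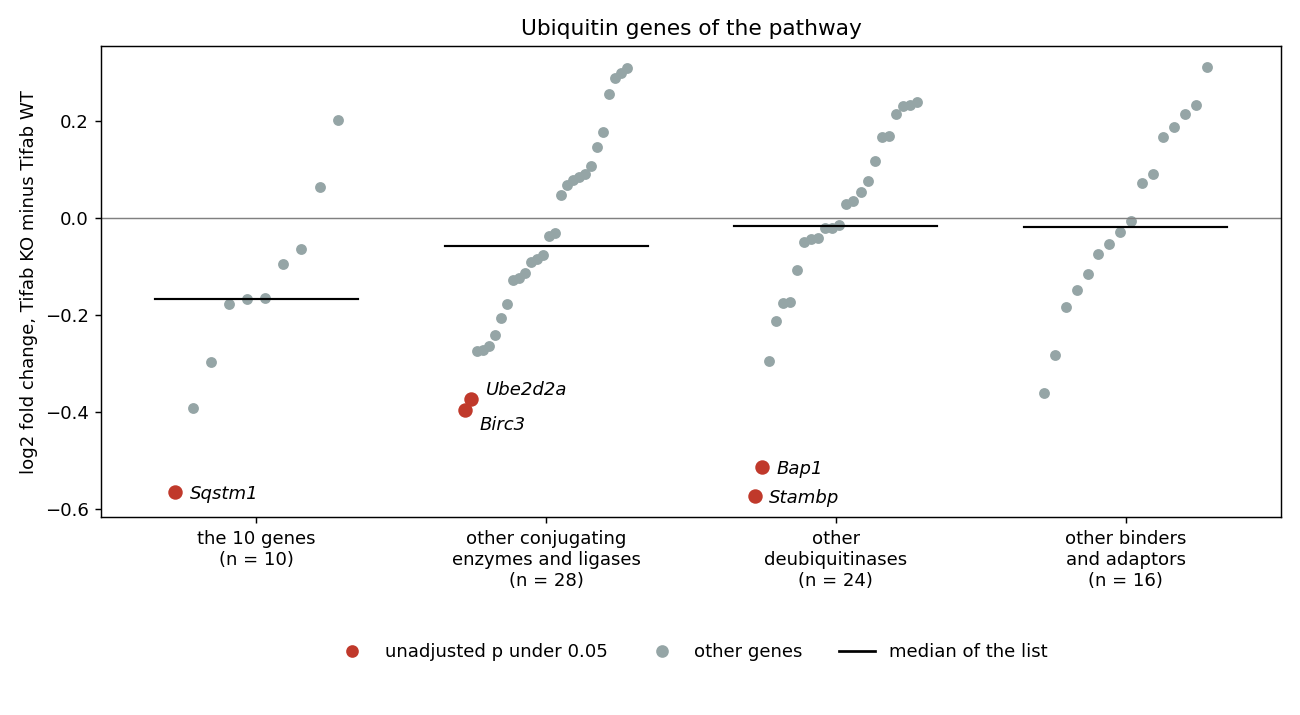
Log2 fold change, KO-labelled minus WT-labelled (vertical axis), of the 10 genes and of 68 other ubiquitin genes in 3 lists (horizontal axis). Red points have an unadjusted p under 0.05, and black lines mark list medians of -0.17, -0.058, -0.017 and -0.018. Sqstm1, Birc3, Ube2d2a, Stambp and Bap1 are the red points, all lower in the KO-labelled arrays.

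Some markers of cells other than LSK cells were also lower in the KO-labelled arrays, and their part in the Sqstm1 difference was not tested. Of 12 neutrophil markers, 10 had lower means, where 50% of all genes did, and the median difference of the list was -0.0955. Among these 10, Il1r2, Mmp8 and Cd177 had an unadjusted p under 0.05 in limma. That was 25.0% of the list, where 5.51% of all genes were called lower. The log2 of the summed level of the 12 markers, in which the brightest weigh most, was 12.54 to 12.83 in the KO-labelled arrays. In the WT-labelled arrays it was 12.59 to 12.81. Their mean log2 level was 7.55, 7.35 and 7.30 in the KO-labelled arrays, against 7.81, 7.56 and 7.59 in the WT-labelled arrays. By that mean the groups did not overlap, though 7.55 and 7.56 were close. Il1r2 measured 3.58, 3.74 and 3.90 in the KO-labelled arrays, against 6.09, 4.64 and 4.48 in the WT-labelled arrays.

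Of 7 measured eosinophil, basophil and mast cell markers, 6 had lower means, and the median difference was -0.099. Fcer1a, Cpa3 and Prss34, named after their values were seen, had small differences of -0.099, -0.020 and -0.0095. Mcpt8, also named so, was higher by 0.26. Ms4a2, Epx and Prg2 were lower at an unadjusted p under 0.05 in limma, or 42.9% of the list, against 5.51% of all genes. The log2 of the summed level was 8.79 to 10.31 in the KO-labelled and 9.72 to 10.32 in the WT-labelled arrays. Prg2 was as high in KO replicate 2 (9.65) as in the WT-labelled arrays (8.87 to 9.62). It measured 6.44 and 6.38 in KO replicates 1 and 3. Epx likewise measured 5.80 in KO replicate 2, against 5.48 to 6.13 in the WT-labelled arrays. In KO replicates 1 and 3 Epx measured 4.43 and 4.42. The 12 macrophage markers had 6 lower and 6 higher means. At an unadjusted p under 0.05 in limma there were 3 lower (Vcam1, C1qb and Cd5l) and 1 higher (C1qa). Over all genes, 5.51% were called lower and 4.74% higher. Vcam1 and C1qb were lower by 0.74 and 0.51 and C1qa higher by 0.52. Cd5l, named after its values were seen, had the largest difference of the list at -1.45. It measured 2.32, 2.33 and 2.16 in the KO-labelled arrays, against 2.95, 3.04 and 5.19 in the WT-labelled arrays. WT replicate 3 stood above the rest. The groups did not overlap, with KO lower, a pattern seen in 8.37% of all genes. The log2 of the summed level of the list was 7.82 to 8.06 in the KO-labelled and 7.95 to 8.18 in the WT-labelled arrays. For B and plasma cells (9 markers), T and NK cells (10) and erythroid cells and platelets (7), 0 markers had an unadjusted p under 0.05 in limma, and the median differences were 0.27, 0.0074 and 0.092. Among 10 measured LSK markers, Meis1 was higher by 0.39 and Hlf lower by 0.33 at an unadjusted p under 0.05, and the median was 0.031. The deposited values carry no detection calls, so which markers were absent could not be read from them. Some markers of other cells were nonetheless bright. S100a8 and S100a9 of the neutrophil list measured 11.4 to 11.6 and 10.5 to 10.8 over the 6 arrays. Jchain of the B and plasma list measured 8.4 to 10.4, and Kit 9.41 to 9.69. S100a8, S100a9 and Jchain were named after their values were seen, and which cells carried this RNA was not tested. Fewer cells of a type and less RNA per cell cannot be told apart in these bulk samples.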

How the data were processed

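The 6 samples were RNA labelled as from sorted LSK cells, 3 of the Tifab-/- and 3 of the Tifab+/+ label, each from 1 mouse per the labels. The authors deposited log2 probe set values, which came from Affymetrix Expression Console per the submitters' processing notes; its version, background correction, summary and normalization are unknown (not given in the sources used here), and no further normalization was applied. Array medians agreed closely, so a change in total RNA per cell would not be seen, and the number of arrays limits the precision.

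Of 41345 probe sets, the platform annotation gave 1 symbol to 23521, several to 1814 and none to 16010. The probe set with the highest mean over the 6 arrays stood for a gene, which left 22180 genes. No 2 arrays held identical values. Differences were tested with limma 3.58.1 in R 4.3.3 (lmFit, then eBayes with an intensity trend, two-sided, genotype as the single term), and p-values were adjusted by Benjamini-Hochberg over all 22180 genes at a threshold of 0.05, and the fit was tested on simulated data. Pairs of genes were compared by exact permutation in SciPy 1.17.1. The Entrez identifiers of 21994 genes matched RefSeq of GRCm38.p6. Start regions of the same build were read for the 10 genes except Otud7b, which had no window. The 10 genes and all lists were chosen with earlier results of these data known. The text names those 10, Tifab, Traf6, Tifa, Kit, Cd34 and list members with an unadjusted p under 0.05 (at most 6 a ubiquitin list, 3 a marker list); others are marked. Alternatives were other moderation, array weights, other normalizations, a filter at the 40th percentile of signal, probe set means, every probe set, an adjusted p under 0.1, the replicate number as a block and each array left out.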

Additional observations from a re-analysis of the deposited data

How the results depend on the processing

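With 3 arrays a group and no gene past the adjusted threshold in the fit of all 6 arrays, these data bound the differences and do not show that any of the 10 genes differ or are alike. None of the 10 passed under any alternative, nor at an adjusted p under 0.1. With single arrays left out, the difference lay between -0.16 and 0.0061 for Ube2n, -0.26 and 0.022 for Tnip1, -0.22 and 0.067 for Usp15, -0.061 and 0.18 for Otud7b, and -0.25 and 0.017 for Tifab, none of which was called; these were the genes that turned direction among the 10, Tifab, Traf6, Tifa, Birc3, Ube2d2a, Bap1 and Stambp. Of the 68 other ubiquitin genes, 32 to 38 then had a lower mean, against 38 with all arrays, and 6 to 12 turned direction. The cause was not tested. The count of the 10 genes that were lower at an unadjusted p under 0.05 then lay between 1 and 2 (Ube2v1 joined without WT replicate 1 and Tnfaip3 without WT replicate 3). For the 68 other ubiquitin genes the lower count lay between 2 and 5, with 2 left without KO replicate 3 or WT replicate 1. The higher count lay between 0 and 3 (3 without WT replicate 3). Over all 22180 genes the count in either direction also moved, from 1630 without KO replicate 1 to 2713 without WT replicate 3. With all 6 arrays it was 2274. Without moderation of the spread the higher count was 1, Otud4. Median centring moved the median of all genes by -0.055 and the share of lower genes to 59.3%, where it was 50% as deposited. Equal replicate numbers did not pair the arrays: the deviations of same-numbered arrays correlated at 0.020, -0.031 and -0.088, and not every array correlated best with its own number. With the replicate number as a block, 1 of the 10 genes and 4 of the 68 were lower at an unadjusted p under 0.05, as without it.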

Other observations

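The linear ubiquitin assembly complex and its deubiquitinase, which act beside A20, and the A20 partners below were described after their values were seen. Rnf31, the catalytic subunit HOIP, measured 6.60, 6.24 and 6.84 in the KO-labelled arrays, against 7.09, 6.73 and 6.65 in the WT-labelled arrays, with overlapping groups and a difference of -0.26 ± 0.20 (SE). The other subunit genes Rbck1 and Sharpin had 0.068 and -0.030, and Otulin, which cuts linear chains, had -0.021. Genes of 3 proteins known to work with A20 had differences of -0.12 for Tax1bp1, 0.090 for Itch and -0.24 for Rnf11. None of these 7 had an unadjusted p under 0.05 in limma. Within the UBE2D conjugating enzymes, Ube2d1 and Ube2d3 had 0.25 and 0.15, opposite in sign to Ube2d2a; both were named after their values were seen.

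A deposited value was the same in a KO-labelled and a WT-labelled array, to every decimal, in 0.57% of all genes (127 of 22180). This held for 2 of the 10 genes, Cyld in KO replicate 1 and WT replicate 1 and Otud7b in KO replicate 1 and WT replicate 3.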
